A study of Homo sapiens with 18 samples.

Results

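The epithelial-mesenchymal state genes described here are 10 genes, namely the epithelial genes KRT7, EPCAM and CDH1, the mesenchymal genes VIM, FN1 and CDH2, and the transcription factor genes SNAI1, SNAI2, ZEB1 and TWIST1. They were chosen by name, and each was found as 1 row in both count tables, which hold 55765 distinct gene symbols. The RNA came from OVCAR3, a human cell line of high-grade serous ovarian cancer grown as an adherent culture in medium with 2% fetal bovine serum. In a first experiment the cells received natural human IgA or IgG with no chosen antigen at 0.5 µg/ml or were left untreated, and in a second they received IgA against BDNF, IgA against TSPAN7 (both 0.5 µg/ml) or no antibody, with 3 libraries in each of the 6 groups. Incubation lasted 24 h per the labels and methods, although a supplementary legend of the study gives 8 h. The study asked how tumour cells respond when IgA is carried through them by its epithelial receptor. All libraries came from 1 cell line, and nothing in the labels says whether replicates were separate cultures, so p-values measure the spread between these libraries. Groups were compared only within an experiment.

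Epithelial cells hold together through adhesion proteins and carry a keratin skeleton, whereas mesenchymal cells are motile, carry a vimentin skeleton and lay down matrix. In the epithelial-mesenchymal transition the SNAIL, ZEB and TWIST transcription factors bind E-box sequences and repress epithelial genes such as CDH1, while vimentin, fibronectin and N-cadherin increase. Ovarian carcinoma cells often hold both programmes at the same time.

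With non-specific IgA against IgG, 2 of the 3 mesenchymal genes (VIM and FN1), 3 of the 4 transcription factor genes (SNAI2, ZEB1 and TWIST1) and the keratin gene KRT7 rose. CDH2, SNAI1 and the surface epithelial genes CDH1 and EPCAM did not pass the test in that comparison. With the antigen-specific IgAs other genes were called, in that FN1 and KRT7 rose with both, CDH1 rose with BDNF IgA, and SNAI2 fell with TSPAN7 IgA. The fitted spread between libraries of a group (common dispersion) was 0.0307 in the first experiment and 0.00303 in the second. Smaller changes could therefore be called in the second, and which genes were called cannot be set against each other between experiments. The calls of CDH1 and SNAI2, unlike those of FN1 and KRT7, depended on single libraries. IgG changed none of the 10 genes at the threshold used. Values are normalised counts, that is read counts brought to the average effective size of the libraries of an experiment, and called means an adjusted p below 0.05 (edgeR quasi-likelihood F test, two-sided, Benjamini-Hochberg over all genes tested).

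The libraries held 27920733 to 42371474 counts in the first experiment, and 39254350 to 47381836 in the second. All 10 genes passed the filter on low counts in both experiments. IgA replicate 3 stood apart, with 19.1% of its counts from the mitochondrial genome against 5.75% to 8.32% in the other 8 libraries of that experiment, and values without it are given for the 10 genes and for the ratios. The cell line's own markers were present, since 7 of 7 serous epithelium markers (PAX8, WT1, MUC16, MSLN, FOLR1, KRT7, EPCAM) reached 10 counts in both experiments. Leukocyte markers summed to 0.572 to 2.02 CPM, counts brought to a common library total, in any library, and the immunoglobulin genes IGHA1 and IGHG1 were at 0 throughout.

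**Figure D1:**
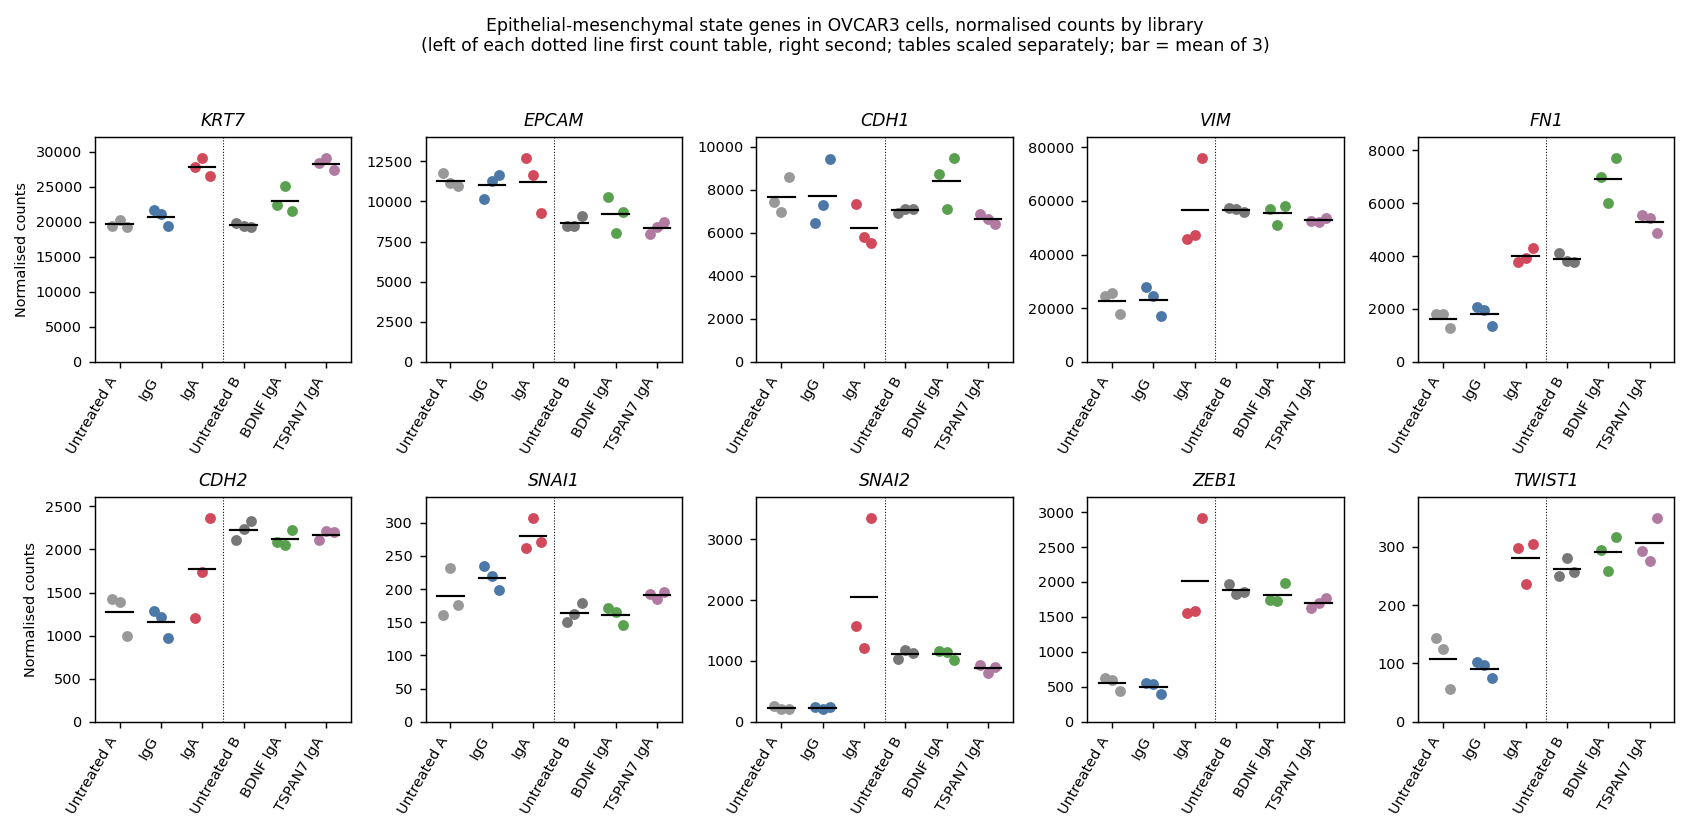
Each panel plots the normalised counts (y axis, linear, from 0) of 1 gene in the 18 libraries, grouped on the x axis by treatment, with 1 point per library and a bar at the mean of 3, where Untreated A and Untreated B are the untreated cells of the first and second experiment. Within the first experiment the 3 IgA libraries sit above all IgG and untreated libraries for VIM, FN1, SNAI1, SNAI2, ZEB1, TWIST1 and KRT7. In that experiment IgA replicate 3 (right-hand IgA point) is the highest for VIM, CDH2, SNAI2 and ZEB1, and by less for FN1 and TWIST1.

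Among the epithelial genes, KRT7 encodes keratin 7, a keratin of simple epithelium and of most ovarian carcinomas (GRCh37 chr12:52626304-52645970, plus strand). It gave 27882, 29154 and 26546 normalised counts with IgA, 21702, 21086 and 19368 with IgG, and 19457, 20293 and 19292 without antibody. The IgA libraries lay above all the others, and IgG and untreated libraries overlapped. The log2 fold change of IgA against IgG was 0.43 ± 0.09 (SE, n = 3 per group, adjusted p = 0.00539), and against untreated cells 0.50 ± 0.09 (adjusted p = 0.00199). Without IgA replicate 3 the value against IgG was 0.46 (adjusted p = 0.00243). Both calls were lost when libraries were scaled by their totals alone (0.20 with adjusted p = 0.289, and 0.30 with adjusted p = 0.11), a scaling that moved the median change over all genes (log2) from -0.01 to -0.25 against IgG and from -0.01 to -0.22 against untreated cells. KRT7 shares its locus with KRT86, which had 9 to 66 counts.

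EPCAM encodes an epithelial surface adhesion molecule (chr2:47572297-47614740, plus strand). Its values were 12735, 11667 and 9292 with IgA, 10138, 11279 and 11673 with IgG, and 11783, 11126 and 10966 in untreated cells. The groups overlapped fully. The log2 difference between IgA and IgG was 0.03, with a 95% interval from -0.22 to 0.28, and between IgA and untreated cells -0.01, with an interval from -0.26 to 0.24. Without IgA replicate 3 the differences were 0.14 and 0.11.

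CDH1 encodes E-cadherin, the cadherin of epithelial adherens junctions (chr16:68771195-68869440, plus strand). It reached 7352, 5793 and 5502 with IgA, 6439.9, 7276 and 9429 with IgG, and 7427, 6943 and 8585 in untreated cells. The means were lowest with IgA, at 6216 ± 995 against 7715 ± 1542 with IgG (SD, n = 3), but IgA replicate 1 lay within the range of both other groups. CDH1 did not pass the test against IgG (log2 fold change -0.31, 95% interval -0.64 to 0.01, adjusted p = 0.148) or untreated cells (-0.30, -0.62 to 0.02, adjusted p = 0.164), nor against IgG without IgA replicate 3 (-0.23, adjusted p = 0.285). It was called lower against IgG without the filter on low counts (-0.32, adjusted p = 0.0432) and with scaling by library totals alone (-0.54, adjusted p = 0.0308).

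Among the mesenchymal genes, VIM encodes vimentin, the intermediate filament of mesenchymal cells (chr10:17270240-17279592, plus strand). It rose from 27886, 24554 and 16970.3 normalised counts with IgG to 45952, 47421 and 76119 with IgA, while untreated cells had 24406, 25623 and 17983. Every IgA library exceeded every other library of the experiment. The log2 fold change was 1.29 ± 0.22 against IgG (adjusted p = 0.00133) and 1.32 ± 0.22 against untreated cells. Without IgA replicate 3, which had the highest value, VIM was still called, at 1.01 (adjusted p = 0.0012). The antisense gene VIM-AS1 overlaps VIM and had 19 to 45 counts in that experiment.

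FN1 encodes fibronectin, an extracellular matrix glycoprotein that cells bind through integrins (chr2:216225163-216300796, minus strand). It had 3771, 3917 and 4299.8 normalised counts with IgA, 2092, 1972 and 1365 with IgG, and 1811, 1793 and 1284 in untreated cells. The lowest IgA library lay far above the highest IgG library, and the IgA replicates were close to each other. The log2 fold change was 1.14 ± 0.17 against IgG (adjusted p = 4.78e-04) and 1.29 ± 0.17 against untreated cells, and it was 1.08 against IgG without IgA replicate 3.

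CDH2 encodes N-cadherin, the cadherin of mesenchymal and neural cells (chr18:25512843-25757910, minus strand). It gave 1202, 1734 and 2369 with IgA, 1287, 1218 and 978.3 with IgG, and 1427, 1393 and 997.4 in untreated cells. The first IgA library was below the highest IgG library and the other 2 were above it, so the groups overlapped. CDH2 did not pass the test against IgG (0.60 ± 0.21, adjusted p = 0.0543). DESeq2 called it (adjusted p = 0.0225), and so did the fit without IgA replicate 1 (0.81, adjusted p = 0.0119), whereas without IgA replicate 3 the value was 0.34 (adjusted p = 0.181).

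Of the transcription factor genes, SNAI2 changed the most. SNAI2 encodes SLUG, a zinc finger repressor of the SNAIL family (chr8:49830157-49834299, minus strand). It stood at 251.1, 214.9 and 238.3 normalised counts with IgG, at 254.4, 205.1 and 208.7 in untreated cells and at 1569.7, 1218 and 3357 with IgA. The mean was 8.70 times higher with IgA than with IgG in the fitted model (log2 fold change 3.12 ± 0.30, adjusted p = 3.29e-05) and the log2 fold change against untreated cells was 3.20 ± 0.30. The spread within the IgA group was wide, 2048 ± 1147 (SD), and without IgA replicate 3 the log2 fold change against IgG was 2.57 (adjusted p = 1.1e-07).

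ZEB1, which encodes a zinc finger and homeodomain repressor (chr10:31607424-31818742, plus strand), had 560.0, 535.4 and 397.5 normalised counts with IgG, 624.0, 601.1 and 440.7 in untreated cells and 1552, 1582 and 2921 with IgA. Its log2 fold change was 2.01 ± 0.24 against IgG (adjusted p = 1.09e-04) and 1.86 ± 0.24 against untreated cells, with 1.65 against IgG after IgA replicate 3 was left out. The antisense gene ZEB1-AS1 starts beside it and had 93 to 214 counts. TWIST1, a basic helix-loop-helix factor (chr7:19060614-19157259, minus strand), rose from 101.7, 96.5 and 74.7 with IgG to 298.2, 236.8 and 304.9 with IgA, and untreated cells had 144.3, 124.4 and 55.6. Its log2 fold change was 1.62 ± 0.30 against IgG (adjusted p = 0.00243) and 1.38 ± 0.30 against untreated cells (adjusted p = 0.00539), and it was 1.55 against IgG without IgA replicate 3 (adjusted p = 0.00301).

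SNAI1, which encodes SNAIL (chr20:48599517-48605423, plus strand), had 262.4, 307.8 and 271.7 normalised counts with IgA, 234.3, 219.4 and 198.7 with IgG and 160.9, 232.0 and 176.4 in untreated cells. The IgA libraries lay above both other groups. The difference passed the test against untreated cells (0.56 ± 0.18, adjusted p = 0.0396) but not against IgG (0.37 ± 0.18, adjusted p = 0.162), and the values without IgA replicate 3 were 0.58 (adjusted p = 0.0362) and 0.39 (adjusted p = 0.152). The call against untreated cells was lost in 4 of 6 fits that left out 1 library, with the largest adjusted p, 0.157, without untreated replicate 1. It was also lost with the 6 libraries compared alone (adjusted p = 0.0817), with voom (adjusted p = 0.0534), with no low-count filter (adjusted p = 0.0785) and with library size scaling (adjusted p = 0.219).

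In all, 6 of the 10 genes were called higher and 0 lower with IgA against IgG, where 12.6% of the 18012 genes tested were called higher and 24.2% in either direction. Against untreated cells 7 were called higher and 0 lower, where 12.9% were called higher and 25% in either direction. The median log2 fold change of the 10 genes was 0.87 against IgG and 0.93 against untreated cells, and over all genes tested it was -0.01 in both. The groups did not overlap for 7 of 10 genes in both comparisons, as for 40.3% and 39.9% of all genes. Both comparisons use the same IgA libraries. IgG and untreated libraries overlapped for each of the 10 genes (groups did not overlap for 6.75% of all genes), and edgeR called 0 genes between them. At an unadjusted p under 0.05 it counted 89 of the 18012 genes tested, and DESeq2 called 0 and counted 139. Both counts fall below the share of 0.05 that a test gives without any difference. These fits, which pool the spread with the IgA libraries, were thus cautious here. The count at an unadjusted p under 0.05 depended on the fit, being 338 with the 6 libraries compared alone and 1051 with voom, each with 0 genes called. Without the filter on low counts edgeR called 2 genes.

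**Figure D2:**
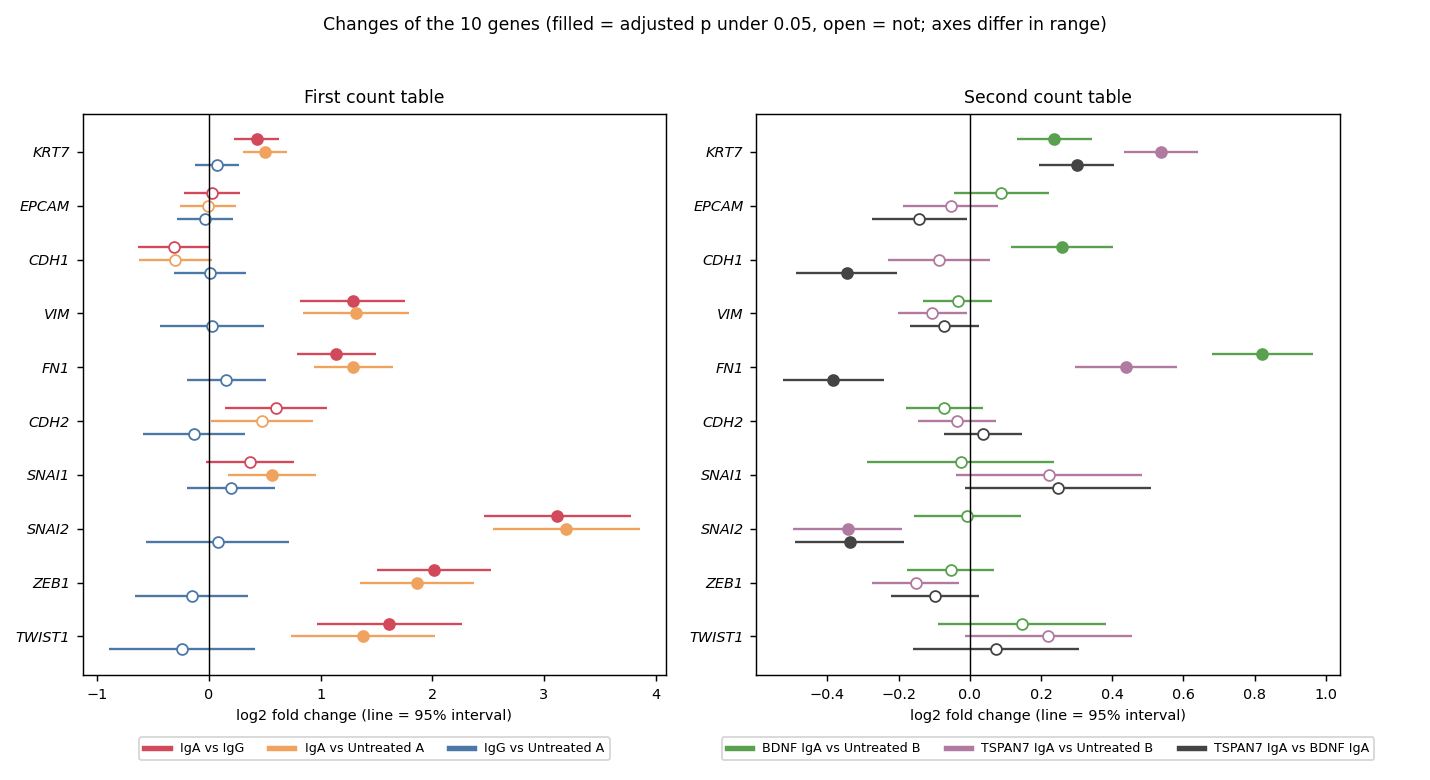
Points give the log2 fold change of each gene (rows) in 3 comparisons of the first experiment (left) and 3 of the second (right), with lines for the 95% interval, and filled points passed an adjusted p of 0.05. With non-specific IgA the intervals of VIM, FN1, SNAI2, ZEB1, TWIST1 and KRT7 lie above 0 against both IgG and untreated cells, and in the second experiment FN1 and KRT7 lie above 0 with both antibodies.

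Within the IgG and untreated groups the library numbered 3 had the lowest VIM, FN1, ZEB1, TWIST1, CDH2 and KRT7 and the highest CDH1. In IgG replicate 3 CDH1 was 9429 and VIM 16970.3, and in untreated replicate 3 they were 8585 and 17983. The labels do not say that a number marks a shared day or batch.

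Windows from the RefSeq promoter table were examined for 4 of the 10 genes (VIM, FN1, ZEB1 and CDH2). Windows of the 3 called among them are shown because these genes rose together with IgA. Each window covers 250 bases before to 50 after a RefSeq transcript start on GRCh38.p14, written 5′ to 3′ on the gene's strand, with the E-box letters CAGGTG or CACCTG (both strands searched) in capitals. ZEB1 has 7 windows, of which 2 hold the E-box, and the one with 3 matches is shown.
FN1, chr2:215436019-215436318, minus strand: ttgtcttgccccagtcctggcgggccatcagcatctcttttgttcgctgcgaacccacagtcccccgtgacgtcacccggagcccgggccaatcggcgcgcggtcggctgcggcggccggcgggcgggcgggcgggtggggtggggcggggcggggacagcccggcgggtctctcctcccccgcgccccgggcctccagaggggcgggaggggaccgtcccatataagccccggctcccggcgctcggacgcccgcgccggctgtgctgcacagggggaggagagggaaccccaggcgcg
VIM, chr10:17227991-17228290, plus strand: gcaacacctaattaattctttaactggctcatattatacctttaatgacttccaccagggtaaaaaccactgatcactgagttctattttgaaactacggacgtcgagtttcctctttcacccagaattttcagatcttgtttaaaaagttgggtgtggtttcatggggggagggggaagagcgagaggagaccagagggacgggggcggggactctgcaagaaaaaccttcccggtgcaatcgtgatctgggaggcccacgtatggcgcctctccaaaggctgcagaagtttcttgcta
ZEB1, chr10:31318966-31319265, plus strand: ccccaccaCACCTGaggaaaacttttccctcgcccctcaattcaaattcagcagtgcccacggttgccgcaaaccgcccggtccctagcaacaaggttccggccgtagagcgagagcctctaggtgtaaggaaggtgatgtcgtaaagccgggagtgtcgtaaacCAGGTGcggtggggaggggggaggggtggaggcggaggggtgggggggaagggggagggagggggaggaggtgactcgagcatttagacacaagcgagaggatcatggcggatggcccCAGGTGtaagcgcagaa

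The E-box letters occur in none of the FN1, VIM and CDH2 windows and in 2 of 7 ZEB1 windows, and 20.6% of the 35116 promoter windows in the table hold them. In the ZEB1 window shown they begin at -242, -85 and 33 relative to the transcript start counted as 0. A match of letters is a description of the sequence and was not tested for binding. Promoters of the other genes, SNAI2 among them, were not examined.

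Levels were also taken per kilobase of exon, with all annotated exons of a gene merged. The merged length can exceed that of the transcripts made, so the order of genes by these values is rough. Untreated cells of the first experiment expressed KRT7 at 4921 ± 134, EPCAM at 4647 ± 178 and VIM at 4380 ± 793 normalised counts per kilobase (SD, n = 3). CDH1 stood at 1259 ± 139. CDH2 stood at 148 ± 27.8 and SNAI1 at 111 ± 21.9, and FN1 (94.6 ± 17.4), SNAI2 (67.9 ± 8.37), ZEB1 (64.2 ± 11.5) and TWIST1 (54.1 ± 23.3) were lower. SNAI2, ZEB1 and TWIST1 did not differ beyond their spread, nor did VIM differ from KRT7 and EPCAM, so keratin and vimentin transcripts were both abundant in untreated cells. With IgA, VIM was the highest of the 10 genes, at 10915 ± 3286 per kilobase, above KRT7 at 6967 ± 326, and SNAI2, at 624 ± 350, was higher than the other 3 transcription factor genes.

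In the untreated cells of the second experiment the per-kilobase level was 10951 ± 133 for VIM, 4878 ± 68.1 for KRT7, 3570 ± 158 for EPCAM, 340 ± 22.3 for SNAI2 and 218 ± 8.26 for ZEB1. These values and those of the first experiment were scaled separately and come from different experiments, so no test was made between them.

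FN1 had the largest change of the 10 genes with BDNF IgA, an antibody against the secreted neurotrophin BDNF. It gave 6987, 5996 and 7725 normalised counts, against 4115, 3811 and 3790.0 in untreated cells and 5548, 5433 and 4890.2 with TSPAN7 IgA, directed at a tetraspanin of the cell surface. The 3 groups did not overlap and were ordered BDNF IgA, TSPAN7 IgA, untreated. The log2 fold change was 0.82 ± 0.07 with BDNF IgA (adjusted p = 4.24e-08) and 0.44 ± 0.07 with TSPAN7 IgA (adjusted p = 2.66e-04), and the log2 difference of TSPAN7 IgA from BDNF IgA was -0.38 ± 0.07 (adjusted p = 0.00123).

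KRT7 showed the other order. It reached 28366, 29189 and 27379.7 with TSPAN7 IgA, 22353, 25149 and 21501 with BDNF IgA, and 19803, 19457 and 19266 in untreated cells, again without overlap. The log2 fold change was 0.54 ± 0.05 with TSPAN7 IgA (adjusted p = 2.6e-07) and 0.24 ± 0.05 with BDNF IgA (adjusted p = 0.00468), and TSPAN7 IgA exceeded BDNF IgA by 0.30 ± 0.05 (adjusted p = 7.33e-04).

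SNAI2 was lower with TSPAN7 IgA, at 938.7, 800.0 and 900.7 normalised counts, than in untreated cells, at 1039, 1184 and 1126, or with BDNF IgA, at 1171, 1142 and 1023. The TSPAN7 IgA libraries lay below the other 6. It fell by 0.34 on the log2 scale against untreated cells (SE 0.07, adjusted p = 0.00473) and by 0.34 against BDNF IgA (adjusted p = 0.00709), and it did not pass the test with BDNF IgA against untreated cells (-0.01, 95% interval -0.16 to 0.14). The call against untreated cells was lost without TSPAN7 IgA replicate 2 (-0.28, adjusted p = 0.0543), and that against BDNF IgA without TSPAN7 IgA replicate 2 (-0.27, adjusted p = 0.0726) or BDNF IgA replicate 1 (-0.30, adjusted p = 0.0527).

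CDH1 had 8704, 7079 and 9486 with BDNF IgA, 6859.6, 6620.2 and 6402 with TSPAN7 IgA, and 6908, 7117 and 7098 in untreated cells. BDNF IgA replicate 2 lay within the untreated range and the other 2 BDNF IgA libraries above it. The rise with BDNF IgA was called (0.26 ± 0.07, adjusted p = 0.0216), but not in 5 of 6 fits that left out 1 library, where the adjusted p reached 0.164 (without BDNF IgA replicate 3), and it was called without BDNF IgA replicate 2 (0.37, adjusted p = 1.3e-06). With the 6 libraries compared alone the rise was not called (adjusted p = 0.0531). Between the antibodies CDH1 was lower with TSPAN7 IgA, with a log2 difference of -0.35 ± 0.07 (adjusted p = 0.00334), a call kept when any 1 library was left out.

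The other 6 genes did not pass the test in the second experiment. VIM was 57266, 56857 and 55927 in untreated cells, 56996, 50977 and 58099.8 with BDNF IgA and 52418, 52102 and 53531 with TSPAN7 IgA. The TSPAN7 IgA libraries of VIM lay below all untreated ones, with a log2 difference of -0.11 (95% interval -0.20 to -0.01, adjusted p = 0.181), and ZEB1 also did not overlap (-0.15, -0.28 to -0.03, adjusted p = 0.123). The TSPAN7 IgA libraries of SNAI1 lay above all untreated ones (0.22, -0.04 to 0.48, adjusted p = 0.315). EPCAM, CDH2, SNAI1 and TWIST1 had log2 differences between -0.07 and 0.22 against untreated cells with either antibody.

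With BDNF IgA 3 of 10 genes were called higher and 0 lower, where 4.49% of the 18732 genes tested were called higher, 3.18% lower and 7.67% in either direction. With TSPAN7 IgA 2 were called higher and 1 lower, where 4.46% and 4.08% of all genes were, or 8.54% in either direction. Between TSPAN7 IgA and BDNF IgA 1 gene was higher and 3 were lower, against 3.42% and 4.5% of all genes, or 7.92% in either direction. The groups did not overlap for 2, 7 and 5 of the 10 genes in these comparisons, as for 24.8%, 28.4% and 23.6% of all genes. The first 2 of these comparisons share the untreated libraries.

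Ratios of 2 genes within a library do not depend on scaling between libraries. The VIM to EPCAM count ratio ranged from 3.61 to 8.19 with IgA, 1.45 to 2.75 with IgG and 1.64 to 2.30 without antibody, with no overlap between IgA and the rest. The highest value was that of IgA replicate 3, and the other 2 IgA libraries had 3.61 and 4.06. The CDH2 to CDH1 ratio, which compares the mesenchymal with the epithelial cadherin, ranged from 0.163 to 0.431 with IgA and from 0.104 to 0.200 with IgG, so these groups overlapped. Its IgA values without replicate 3 were 0.163 and 0.299. In the second experiment VIM to EPCAM stayed between 5.53 and 6.78 in all 9 libraries.

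The VIM to KRT7 ratio moved in opposite directions in the 2 experiments. It ranged from 1.63 to 2.87 with non-specific IgA (1.63 and 1.65 without replicate 3), against 0.876 to 1.28 with IgG. In the second experiment it ranged from 1.79 to 1.96 with TSPAN7 IgA, from 2.03 to 2.70 with BDNF IgA and from 2.89 to 2.92 in untreated cells, without overlap between the groups.

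**Figure D3:**
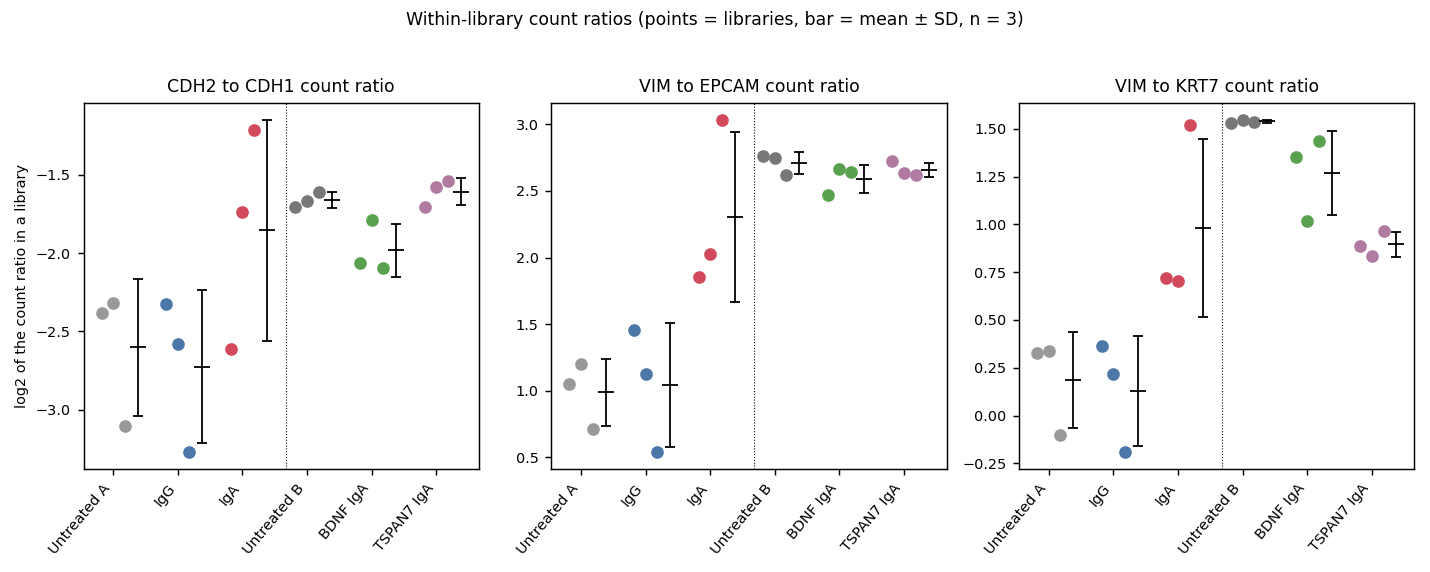
Each panel plots the log2 count ratio of 2 genes (y axis) in the 18 libraries by group, with 1 point per library and the mean ± SD (n = 3) beside them. VIM to EPCAM is higher in the 3 IgA libraries than in the IgG and untreated libraries of the first experiment, and VIM to KRT7 is lowest with TSPAN7 IgA in the second.

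Genes around these 10 were described as lists, whose counts are to be read beside the shares of all genes called. With IgA against IgG these shares were 12.6% higher and 11.6% lower. Against untreated cells they were 4.49% and 3.18% with BDNF IgA, and 4.46% and 4.08% with TSPAN7 IgA. Of 11 epithelial regulators, 5 were called lower and 0 higher with IgA against IgG, with a list median log2 fold change of -0.47. They were ESRP2 (-1.22 ± 0.21), which directs epithelial splicing, the epithelial transcription factor genes GRHL2 (-1.14 ± 0.16), ELF3 (-0.83) and GRHL1 (-0.54), and the protease gene ST14 (-0.48). Of 11 epithelial adhesion genes, 3 were called higher and 0 lower (the desmosomal genes DSG2, 0.49, and DSP, 0.38, and the catenin gene CTNNA1, 0.34), and the other 8 did not pass. With scaling by library totals alone, none of the adhesion genes was called higher and 1 was called lower.

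The keratins other than KRT7 split. With IgA against IgG 6 of 10 were called higher and 1 lower, with a median of 0.79. The basal keratins KRT14 (2.30 ± 0.29) and KRT17 (1.96 ± 0.33) rose the most, followed by KRT81 (1.23) and KRT23 (1.04), and KRT8, a partner keratin of simple epithelium, fell by 0.37. Scaled by library totals alone, 3 keratins were called lower. In the second experiment KRT81 rose with both TSPAN7 IgA (0.87 ± 0.09) and BDNF IgA (0.42 ± 0.09), as did KRT80 (0.81 and 0.33), while KRT5 fell by 0.30 and by 0.63.

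Of 14 mesenchymal structural genes 12 were tested, CDH11 being at 0 in all libraries and POSTN at no more than 5 counts. With IgA against IgG 9 were called higher and 0 lower, with a median of 0.78. Among them the matricellular genes CYR61 and CTGF rose by 2.38 ± 0.16 and 1.97 ± 0.20, and the actin-binding gene TAGLN by 1.52. With TSPAN7 IgA 4 of the 12 rose, among them CYR61 (0.48 ± 0.09) and CTGF (0.43 ± 0.10). With BDNF IgA the matrix gene SPARC rose (0.88 ± 0.14) and S100A4 fell by 0.20.

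Most of the receptors that bind fibronectin or its matrix partners rose with IgA. Against IgG 6 of 8 were called higher and 0 lower, with a median of 0.85, where 12.6% of all genes were called higher, among them SDC4 (2.41 ± 0.12), a syndecan, ITGA5 (1.37 ± 0.21), the subunit of the main fibronectin integrin, and ITGB3 (1.28 ± 0.13). The count was 5 higher without IgA replicate 3, and 4 higher and 1 lower with library size scaling. With BDNF IgA 2 of 8 rose, ITGA5 (0.43 ± 0.07) and ITGB3 (0.37 ± 0.08), and with TSPAN7 IgA ITGB3 (0.37 ± 0.08) and SDC4 (0.20 ± 0.06), and the count was 1 without TSPAN7 IgA replicate 2.

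Further transcription factors linked to the transition had no common direction, and their counts were near the shares of all genes called (12.6% higher and 11.6% lower). Of 13 listed, 12 were tested, and with IgA against IgG 1 was called higher (TWIST2, 1.66 ± 0.52, at 9 to 45 counts in the first experiment) and 2 lower (TCF4, -0.72 ± 0.14, and SOX9, -0.69 ± 0.17), with a median close to 0. When libraries were scaled by their totals alone none was called higher and 4 were called lower. With TSPAN7 IgA 3 were called lower, among them PRRX1 (-0.74) and TCF4 (-0.27), but none without TSPAN7 IgA replicate 2. With BDNF IgA PRRX2 was called higher (0.54 ± 0.13). Against untreated cells in place of IgG, IgA gave 6 lower among the epithelial regulators, 6 higher and 1 lower among the keratins, 9 higher among the mesenchymal genes and 6 higher among the fibronectin receptors. The counts of called genes of these lists without IgA replicate 3 stayed within 1.5 times of those given. Without BDNF IgA replicate 2, the counts with BDNF IgA were 4 higher and 1 lower among the adhesion genes, 4 higher and 3 lower among the keratins, 2 higher and 3 lower among the mesenchymal genes, and 2 higher and 1 lower among the transcription factors. With all libraries these counts were 1 and 0, 3 and 1, 1 and 1, and 1 and 0. The shares of all genes called also rose without that library, from 4.49% to 7.85% higher and from 3.18% to 6.74% lower.

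**Figure D4:**
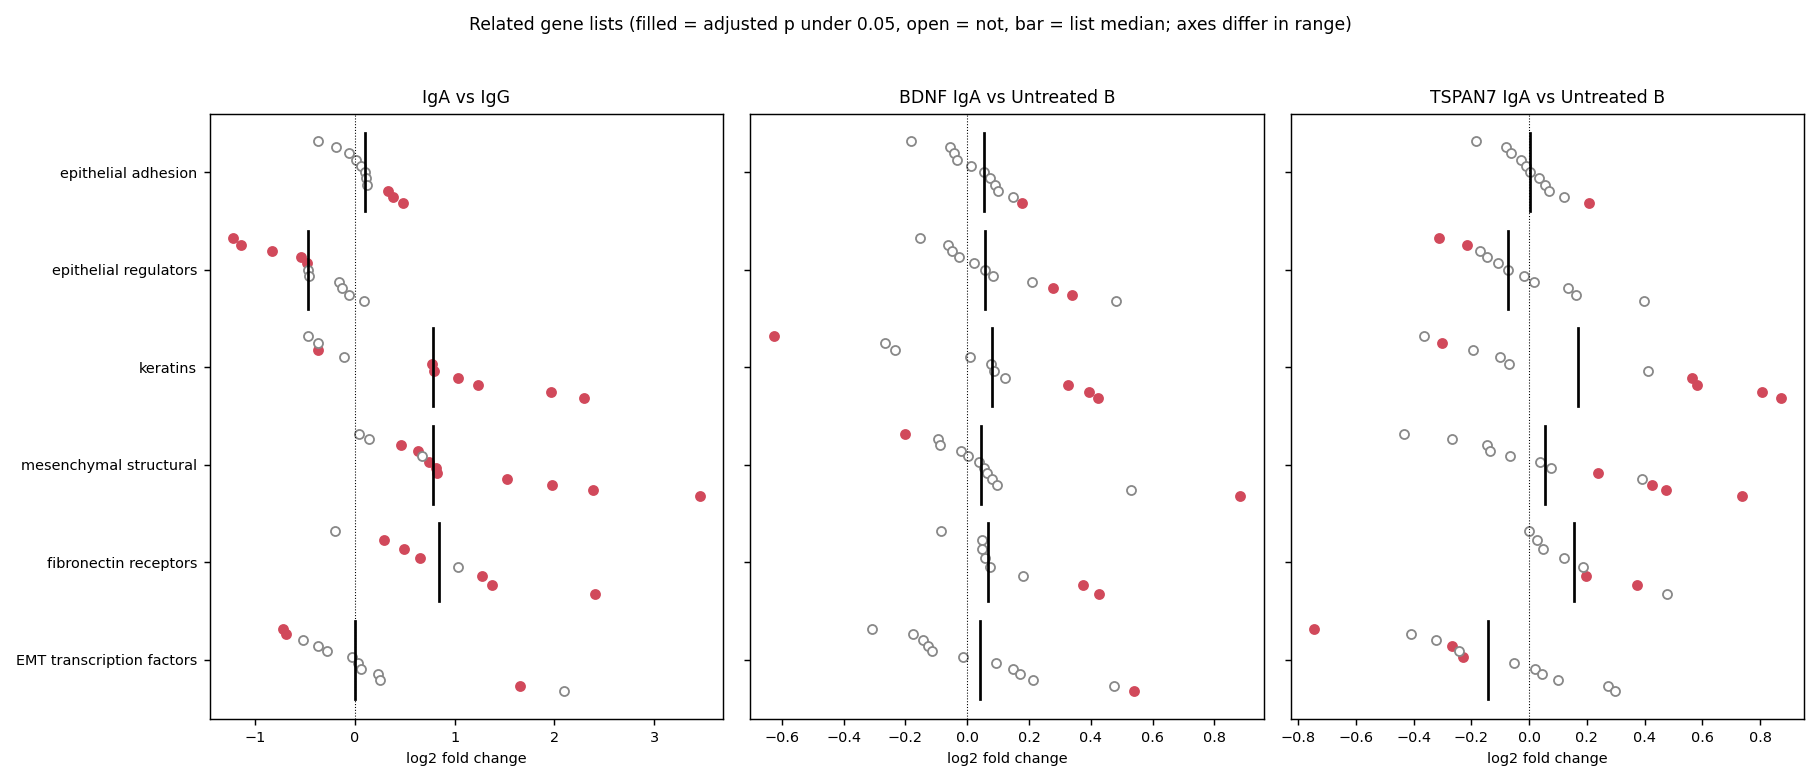
Each point is 1 gene of a related list (rows), placed by its log2 fold change (x axis) in 3 comparisons, filled where the adjusted p was under 0.05, with a bar at the list median. With IgA against IgG the medians of the mesenchymal genes (0.78) and the fibronectin receptors (0.85) lie to the right of 0 and that of the epithelial regulators (-0.47) to the left, and with BDNF IgA or TSPAN7 IgA all 6 medians lie between -0.14 and 0.17.

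Markers of other cells were read beside these results, and in bulk RNA more cells of a type and more RNA per cell cannot be told apart. Of 9 fibroblast markers 6 reached 10 counts in a library of the first experiment, and they summed to 67.7 to 111 CPM with IgA, 63.4 to 70.3 with IgG and 66.0 to 72.9 in untreated cells. The collagen genes COL1A1 (0.64) and COL1A2 (0.66) were called higher with IgA against IgG but not against untreated cells (adjusted p = 0.0526 and 0.0535), whereas DCN had no more than 6 counts, LUM no more than 16 and PDGFRB no more than 7. The 3 mesothelium markers summed to 63.8 to 89.7 CPM with IgA and 105.5 to 145 with IgG. UPK3B made up most of that sum, with 1747 to 5838 counts against 13 to 49 for LRRN4 and no more than 13 for CALB2. Against untreated cells IgA lowered UPK3B (-0.62) and raised LRRN4 (1.51), both called. Of the 7 serous markers 2 were called lower against IgG, WT1 (-1.17) and FOLR1 (-0.88), and 2 higher, PAX8 (0.34) and KRT7 (0.43). The part of other cells in the changes of VIM and FN1 was not tested.

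The genes most like each member over the 6 group means were found among 10112 genes, by the root mean square difference of the mean log2 CPM after each experiment was centred. Nearest to SNAI2 were G0S2 (0.15), HERPUD1 (0.20) and HSPA5 (0.23). Nearest to VIM were STARD4, SLCO4A1 and LGALS1, at 0.03 to 0.04. FN1 was most like HDAC9 (0.11), XDH (0.11) and ITGA5 (0.12), ZEB1 most like EMP3 (0.03), TWIST1 most like SDF2L1 (0.05), CDH1 most like USP35 (0.01) and KRT7 most like PDLIM2 (0.05). These distances rest on 6 points that share libraries and are a description only.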

How the data were processed

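RNA of 18 OVCAR3 libraries was sequenced as paired reads on a NextSeq 550 from a kit made for fixed human tissue RNA. Per the methods, the authors trimmed with cutadapt 1.8.1, aligned to GRCh37 with STAR, counted uniquely mapped reads per gene with featureCounts on Gencode annotation and tested with DESeq2. The submitters' notes also list HTSeq 0.6.1. The deposited values are raw read counts per gene, not normalised, and use of strand was not stated, so overlapping and antisense genes may share reads. Of the second table, 2055 exact duplicate rows were dropped. Groups came from the sample titles.

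Each table was fitted with all its 9 libraries in edgeR 4.0.16 under R 4.3.3, scaled by TMM and filtered with filterByExpr before its quasi-likelihood F test (two-sided), with p-values adjusted by Benjamini-Hochberg over all genes tested. A standard error is the size of the log2 fold change over the root of F. Positions and exon lengths were taken from GENCODE v44 lifted to GRCh37 and promoters from RefSeq. The 10 genes and the lists were chosen with earlier results of these data known. Beside them, genes were named by rule, up to 2 called genes per direction and list, and the 3 most alike genes with a mean log2 CPM of at least 3. CTNNA1, ELF3, GRHL1, ST14, KRT23, KRT80, ITGB3 and TAGLN are named outside that rule, after their values were seen, as are markers and genes at 0. Some genes of the lists are counted but not reported here by name. Alternatives were DESeq2 1.42.0, limma 3.58.1 voom with sample weights, other scalings and filters, 6 libraries, a replicate block and leaving out each library. List counts under other settings were added after seeing the data. Scripts were tested on simulated data. Without molecular identifiers, reads cannot be counted as molecules, and errors rest on the differences between replicate libraries.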

Additional observations from a re-analysis of the deposited data

Results flagged for a closer look

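In 4 of the 10 genes every library of one group lay above the mean of its untreated cells and every library of a group of the other experiment lay below the mean of its own. For CDH1 some of these libraries lay within the range of the untreated libraries. The differences between experiments were not tested. CDH1 had a log2 fold change of -0.30 with non-specific IgA and 0.26 with BDNF IgA. VIM had 1.32 with non-specific IgA and -0.11 with TSPAN7 IgA. SNAI2 had 3.20 with non-specific IgA and -0.34 with TSPAN7 IgA. ZEB1 had 1.86 with non-specific IgA and -0.15 with TSPAN7 IgA. Of these 8 values, those of VIM, SNAI2 and ZEB1 with non-specific IgA, of SNAI2 with TSPAN7 IgA and of CDH1 with BDNF IgA passed the test against the untreated cells of their own experiment.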

How the results depend on the processing

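Of the log2 fold changes of the 10 genes under the alternatives, 840 kept their direction and side of the threshold, 15 gained and 19 lost a call, and 26 changed sign, each of a gene that was not called. The causes were not tested. SNAI2, ZEB1, TWIST1, VIM and FN1 kept their calls with non-specific IgA under every alternative run, as did FN1 and KRT7 in the second experiment.

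The number of the 10 genes called lower was 1 for IgA against IgG with library size scaling and with no filter, 1 for IgA against untreated cells with library size scaling, and 2 for TSPAN7 IgA against untreated cells with voom and with 6 libraries. Leaving out 1 library, it ranged from 0 to 1 for TSPAN7 IgA against untreated cells and from 2 to 5 for TSPAN7 IgA against BDNF IgA (5 without BDNF IgA replicate 2, when EPCAM and VIM were also called lower). With 6 libraries ZEB1 was called lower with TSPAN7 IgA (adjusted p = 0.0466), and with voom VIM (adjusted p = 0.0374).

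Signs changed for small values. EPCAM was -0.20 for IgA against IgG with library size scaling and -0.076 to 0.14 when 1 library was left out, and 0.036 against untreated cells with voom and -0.11 to 0.11 when 1 was left out. For IgG against untreated cells CDH1 was -0.047 with voom, and leaving out 1 library gave -0.16 to 0.13 for CDH1, -0.076 to 0.024 for EPCAM, -0.13 to 0.21 for VIM and -0.56 to 0.020 for TWIST1. For BDNF IgA SNAI2 was 0.020 with voom and 0.0094 with library size scaling, SNAI1 was 0.017 with voom, and leaving out 1 library gave -0.054 to 0.048 for SNAI2, -0.083 to 0.046 for SNAI1 and -0.072 to 0.019 for VIM. TWIST1 between the specific IgAs was -0.032 to 0.14.

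Over all genes, calls for IgA against IgG ranged from 2566 to 5286 under the alternatives, for IgA against untreated cells from 2601 to 5229, for BDNF IgA from 734 to 2798 (2798 without BDNF IgA replicate 2), for TSPAN7 IgA from 757 to 2442 and between the specific IgAs from 482 to 3276. Same-numbered libraries correlated by -0.07 to 0.25 in the first experiment and -0.02 to 0.09 in the second. Differently numbered ones correlated by -0.21 to 0.14 and by -0.08 to 0.05. The highest value, 0.25, was that of IgG replicate 3 with untreated replicate 3. Whether the numbers mark shared cultures or batches cannot be told from the labels. With a replicate block 4340 genes were called for IgA against IgG and 1655 for BDNF IgA, and the numbers of the 10 genes called stayed as in the report. Each of the 10 genes had at least 68 counts in every library, and the part of depth in their calls was not tested. With TSPAN7 IgA against untreated cells the standard error was largest for the genes with the fewest counts, SNAI1 (0.125) and TWIST1 (0.113).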
